A study of Glycine max with 12 samples.

Results

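A set of 54 soybean genes had low RNA levels in leaves under water deficit, with or without heat. The genes were chosen by their levels. A gene entered the set if its identifier began with LOC, if the highest of its 6 combined stress and water deficit values was at most 2/3 of the lowest of its 6 heat stress and control values, and if that lowest value was at least 50 normalized counts. A last condition removed genes whose highest combined stress value was 0.5 or less of their lowest water deficit value, and it removed 0 genes. The table lists 55051 genes, of which 51799 carry a LOC identifier and 23874 of those passed the floor of 50. With the same limits turned round, 80 LOC genes were higher in the combined stress and water deficit libraries. All samples were leaves of wild-type plants of the cultivar Magellan (PI595362), grown in chambers. The groups were combined stress (water deficit and heat together), water deficit, heat stress and an untreated control, with 3 libraries each. How severe and how long each stress was, and whether libraries came from separate plants, are not given in the labels, so the spread between libraries may be partly technical.

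Leaves short of water close their stomata, make abscisic acid and slow growth, and RNAs of many growth and transport genes fall while those of protective genes such as dehydrins rise. Heat acts through another route, in which heat shock factors raise chaperones. Plants under both stresses at once therefore face competing demands, because open stomata cool a leaf and closed stomata save water. Of the 54 genes, 53 were found in the RefSeq gene table of the assembly Glycine_max_v4.0, which holds 52 of them as protein coding and LOC100813054 as a miscellaneous RNA. LOC102660412 was not matched. The table gives a name to 1 member only, LOC100527333, whose synonym is GmTIP2;2, a tonoplast intrinsic protein of the aquaporin family, which lets water cross the membrane of the vacuole. The roles of the other members are not annotated in the sources used here, and they are described by their identifiers and values. Many soybean genes have a close copy. How reads that fit several copies, or genes on opposite strands, were counted is not given in the sources used here, and single values are uncertain to that extent.

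Depth ran from 26077068 to 46186226 recovered reads per library. Of the 11 leaf markers looked up by symbol (genes for the carbon-fixing enzyme, its activase and light-harvesting proteins), all had reads in every library, and their summed normalized counts were between 475021 and 645254 in combined stress, between 566279 and 1012036 in water deficit, between 535521 and 1316322 in heat stress and between 782086 and 1539124 in control. Of 13 nodule markers 7 were at 0 in every library, among them LBC1, LBC2 and LBC3, and the list summed to 245 to 681 normalized counts over the 12 libraries. Of 17 seed markers 14 were at 0 everywhere, and that list summed to 7.93 to 55.8. The summed leaf markers of combined stress lay below those of control without overlap, those of the other groups overlapped, and their part in the results was not tested. These are bulk leaf samples, in which fewer cells of a type and less RNA per cell cannot be told apart. Heat stress library 3 and combined stress libraries 2 and 3 stood apart on LCL3, a LHY/CCA1-like morning gene of the daily clock, with normalized counts of 2013, 1863 and 2112. The other 9 libraries had 153 to 788. Results for heat that rest on heat stress library 3 are therefore also given without it.

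The values that chose the genes are given as a description. Mean levels of the 54 genes in water deficit were 2.0% to 46.6% of control, with a median of 24.7%. In combined stress they were 2.94% to 52.0% of the heat stress level, with a median of 20.6%. Both remaining levels were under 50% for 53 genes, under 25% for 22 genes and under 10% for 5. The summed normalized count of the set was 17371 to 26765 in combined stress and 18097 to 30357 in water deficit, against 79208 to 85104 in heat stress and 78414 to 86831 in control. This is 0.0455% to 0.0844% of a library's total in combined stress and 0.0559% to 0.0856% in water deficit, against 0.217% to 0.266% in heat stress and 0.222% to 0.235% in control. The heat map of the set shows the same split gene by gene, with a spread within the stressed groups that differs between genes.

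**Figure D1:**
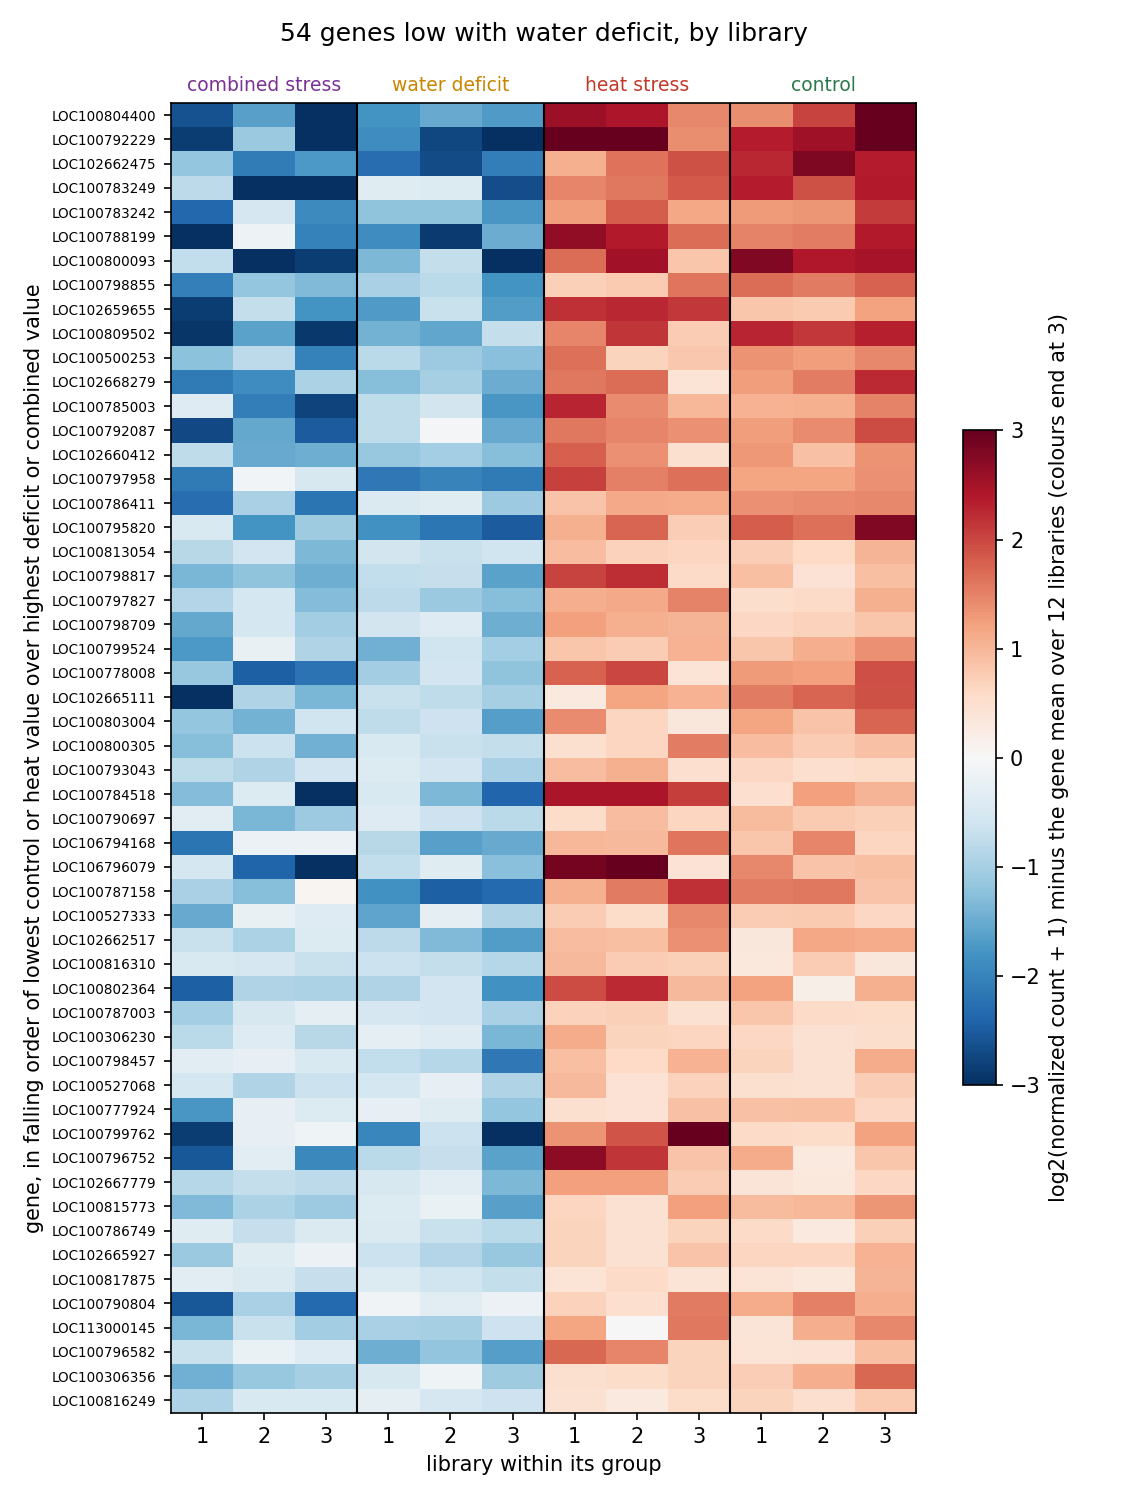
Each row is 1 of the 54 genes and each column 1 library; colour is log2(normalized count + 1) minus the gene's mean over the 12 libraries, and colours end at 3 in either direction. The 6 combined stress and water deficit columns are blue and the 6 heat stress and control columns red in almost every row, which is how the genes were chosen; the rows run from LOC100804400, with a ratio of 8.24 between its lowest control or heat stress value and its highest water deficit or combined stress value, to LOC100816249, with 1.52.

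The ratio of the lowest control or heat stress value to the highest water deficit or combined stress value was 1.52 to 8.24, with a median of 1.91. It was above 2 for 22 genes and above 3 for 7. Just inside the limit, with the highest combined stress or water deficit value against the lowest heat stress or control value, lay LOC100816249 (708 against 1073), LOC100306356 (2227 against 3397) and LOC100796582 (152 against 233), with ratios of 1.52, 1.53 and 1.53. Just outside it lay LOC100783227 (243 against 364), LOC100786872 (233 against 348) and LOC100818406 (375 against 555), with ratios of 1.496, 1.493 and 1.48. For water deficit minus control, limma (log2 of the normalized count + 1, adjusted over 33119 genes tested) called 41 of the 54 lower and 0 higher, where 0.688% of all genes tested were called lower and 0.589% higher. For combined stress minus heat stress it called 52 of the 54 lower and 0 higher, where 2.83% of all genes tested were called lower and 2.38% higher. By the choice, the libraries of both pairs did not overlap in any member. Of all genes tested, 13.5% were lower and 13.9% higher without overlap in water deficit minus control, and 10.2% lower and 9.17% higher in combined stress minus heat stress. Both counts follow from the choice of the genes. The 2 members not called there were LOC100798457 and LOC100777924.

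LOC100804400, LOC100792229, LOC102662475 and LOC100783249 had the 4 largest ratios. LOC100804400 had normalized counts of 3.30, 7.46 and 0.80 in combined stress, 6.53, 8.24 and 7.09 in water deficit, 154, 139 and 70.5 in heat stress and 67.8, 105 and 247 in control. The highest combined stress or water deficit value was 8.24 and the lowest heat stress or control value was 67.8. The 2 lowest combined stress libraries rested on 4 and 1 reads. LOC100804400 kept 3.18% of its heat stress level in combined stress and 5.21% of its control level in water deficit. LOC100792229 had normalized counts of 3.30, 13.3 and 2.4 in combined stress, 7.46, 3.66 and 0.89 in water deficit, 249.7, 316 and 80.4 in heat stress and 158, 179 and 263 in control. Here water deficit library 3 was the lowest, and the remaining level was 2.94% in combined stress and 2.0% in water deficit. LOC102662475 had normalized counts of 166, 87.0 and 113 in combined stress, 75.6, 57.7 and 87.7 in water deficit, 778, 1165 and 1396 in heat stress and 1801, 2616 and 1911 in control. The 6 combined stress and water deficit libraries of this gene lay between 57.7 and 166. The log2 change was -3.19 (SE 0.29) for combined stress minus heat stress and -4.82 (SE 0.29) for water deficit minus control. LOC100783249 had normalized counts of 12.4, 0.83 and 0.80 in combined stress, 16.8, 16.5 and 2.66 in water deficit, 63.0, 67.8 and 82.2 in heat stress and 116, 86.1 and 118 in control. Combined stress libraries 2 and 3 held 1 read each. Heat stress lay below control in every library of this gene.

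In the other 6 of the 10 genes with the largest ratios, the library that set the ratio differed. LOC100783242 had normalized counts of 71.0, 256 and 96.1 in combined stress, 158, 158 and 108 in water deficit, 876, 1299 and 815 in heat stress and 893, 924 and 1573 in control. LOC100788199 had normalized counts of 10.7, 138 and 36.8 in combined stress, 41.1, 20.1 and 54.1 in water deficit, 968, 804 and 487 in heat stress and 427, 443 and 798 in control. In both genes combined stress library 2 was the highest of its group, and it set the ratio. LOC100800093 had normalized counts of 20.7, 1.66 and 4.0 in combined stress, 13.1, 21.1 and 2.66 in water deficit, 113, 204 and 63.4 in heat stress and 244, 189.7 and 199 in control. LOC100798855 had normalized counts of 43.0, 80.4 and 71.2 in combined stress, 91.4, 103 and 51.4 in water deficit, 299, 309 and 550.1 in heat stress and 577, 532 and 620.3 in control. LOC100800093 had its highest stressed value in water deficit library 2, as did LOC100798855, which stayed at 16.8% of heat stress and 14.2% of control. LOC102659655 had normalized counts of 4.96, 24.9 and 11.2 in combined stress, 12.1, 25.6 and 12.4 in water deficit, 193, 204 and 183 in heat stress and 74.9, 72.4 and 97.3 in control. Its heat stress libraries were all above its control libraries, so that the remaining level was 7.08% with heat and 20.5% without. LOC100809502 had normalized counts of 19.0, 48.1 and 19.2 in combined stress, 55.1, 50.3 and 91.3 in water deficit, 414, 666 and 254 in heat stress and 733, 651 and 754 in control. For this gene the combined stress libraries were all below the water deficit libraries.

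The 6 members with the highest mean counts in control ran from 3516 to 18134 normalized counts there. Counts are not per length, so their order says nothing of abundance between genes. LOC100786411 had normalized counts of 1414, 3495 and 1492 in combined stress, 5083, 5350.1 and 3227 in water deficit, 12419, 14944 and 14782 in heat stress and 17623, 18164 and 18615 in control. It kept 15.2% of its heat stress level and 25.1% of its control level. LOC102667779 had normalized counts of 4826, 5321 and 5030.1 in combined stress, 6183, 6853 and 3395 in water deficit, 20422, 20238 and 14636 in heat stress and 11413, 10741 and 13268 in control. Heat stress was above control in every library, and the remaining level was 27.4% with heat and 46.4% without. LOC100777924 had normalized counts of 2011, 5727 and 5125 in combined stress, 5723, 5260.4 and 3022 in water deficit, 9522, 9101 and 12437 in heat stress and 12403, 12593 and 10373 in control. Combined stress library 1 and water deficit library 3 were the low ones. LOC100306356 had normalized counts of 889, 1104 and 1222 in combined stress, 1745, 2227 and 1151 in water deficit, 3397, 3544 and 3849.6 in heat stress and 4077, 5144 and 7958 in control. It kept 29.8% of its heat stress level and 29.8% of its control level, and LOC100777924 kept 41.4% and 39.6%. LOC100787003 had normalized counts of 1580.2, 2311 and 2698 in combined stress, 2280.5, 2166 and 1639.6 in water deficit, 5220.5, 5261 and 4469 in heat stress and 5794, 4801 and 4740.3 in control. LOC100798709 had normalized counts of 738, 1476 and 1029 in combined stress, 1462, 1633 and 774 in water deficit, 5012, 4460.1 and 4327 in heat stress and 3289, 3464 and 3794 in control. LOC100787003 stayed at 44.1% of heat stress and 39.7% of control, LOC100798709 at 23.5% and 36.7%.

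The size of the fall with and without heat was described by setting combined stress minus heat stress beside water deficit minus control, which share no library. Both contrasts chose the genes. A gene that fell in only 1 of them could not enter the set. The comparison and the interaction below are thus a description of the members. The log2 change was -4.97 to -0.95 with heat (median -2.32) and -5.54 to -1.12 without (median -2.02). For 42 genes both changes lay within 1 of each other on the log2 scale (77.8%, against 84.3% of all genes tested). For 31 genes they lay within 0.5, and the share of all genes tested within that limit was not taken. Near-equal changes are thus not particular to the set. The fall was larger with heat in 33 genes and smaller in 21. Across the 54 genes the changes had a Pearson's r of 0.683, a description over genes whose changes the choice limits to falls. The interaction (combined stress minus heat stress minus water deficit plus control) had a median of -0.12 over the set, against -0.04 over all genes tested. limma called 0 of the 54 genes for it, where 0.0% of all genes tested were called in either direction, and 3 members were higher and 4 lower at an unadjusted p under 0.05 (5.56% and 7.41%, against 4.25% and 5.21% of all genes tested). The median standard error of the interaction was 0.53 over the set and 0.41 over all genes tested. edgeR called 0 members, and 0 of all genes tested. DESeq2 called 1 member higher, LOC102662475 (1.85%), and 0 lower, where it called 0.35% of all genes tested higher and 0.438% lower.

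**Figure D2:**
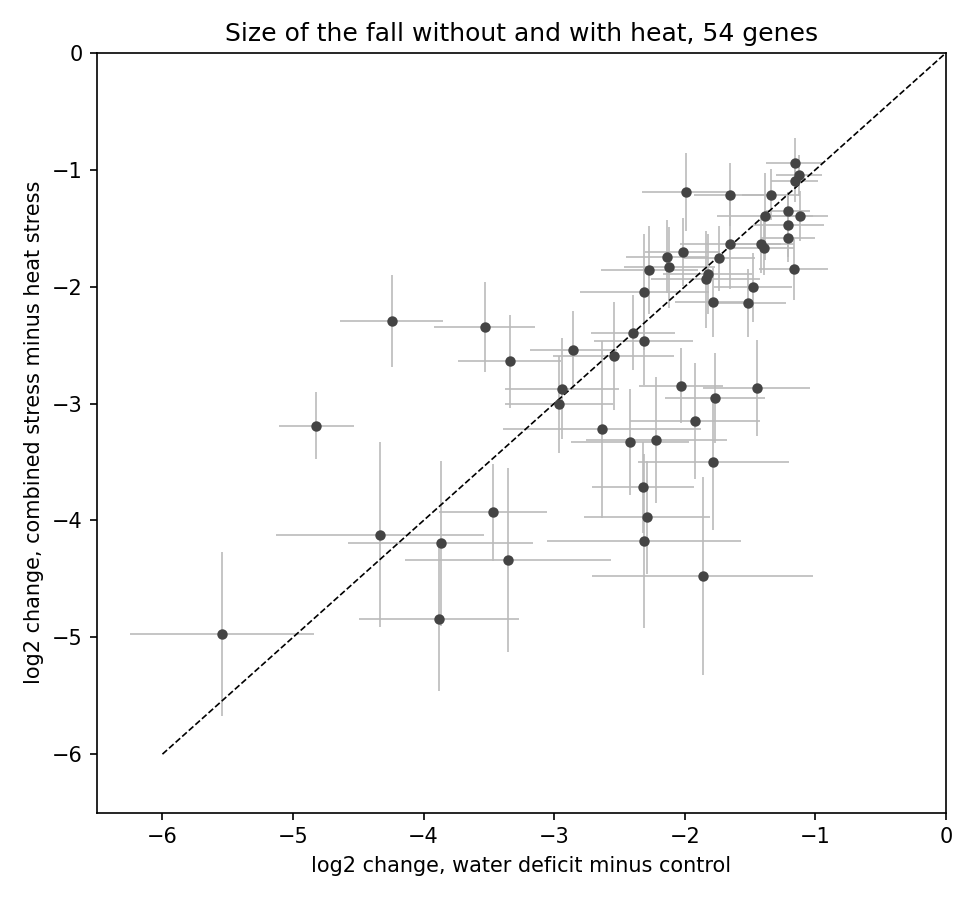
Each point is 1 of the 54 genes; the x axis is the log2 change of water deficit minus control, the y axis that of combined stress minus heat stress, and bars are standard errors of limma. The dashed line marks equal change, and 42 genes differ by less than 1 between the axes (77.8%, against 84.3% of all genes tested). LOC102662475 (-4.82 on x, -3.19 on y) and LOC106796079 (-1.86 on x, -4.47 on y) lie away from it on opposite sides.

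The genes farthest from equal falls, singled out after their values were seen, were LOC106796079 and LOC100795820. LOC106796079 had normalized counts of 33.0, 8.28 and 1.60 in combined stress, 28, 36.6 and 19.5 in water deficit, 354, 388 and 64.3 in heat stress and 132, 87.6 and 90.0 in control. Its heat stress libraries 1 and 2 were high and library 3 was below all control libraries, and the interaction was -2.61 (SE 1.2, adjusted p by limma 0.528). LOC100795820 had normalized counts of 202, 79.5 and 131 in combined stress, 78.4, 60.4 and 47.9 in water deficit, 584, 928 and 465 in heat stress and 977, 866 and 1906 in control. All combined stress libraries lay above the water deficit libraries, and the interaction was 1.95 (SE 0.56, adjusted p by limma 0.408). For LOC102662475 the interaction was 1.63 (SE 0.41, adjusted p by limma 0.390). Without heat stress library 3, limma called it for the interaction at 1.82 (SE 0.41, adjusted p 0.0351) together with LOC100798817 at -1.70 (SE 0.37, adjusted p 0.0322). In that fit 2.62% of all genes tested were called higher for the interaction and 2.16% lower.

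Heat in plants with enough water (heat stress minus control) was not a contrast that chose the genes, although a gene that was low in either group could not enter the set. The median log2 change over the 54 genes was -0.04, against -0.01 over all genes tested, with 26 genes above 0 and 28 below. Changes ran from -0.94 to 1.41, and 49 of 54 were smaller than 2-fold (90.7%, against 87.5% of all genes tested). limma called 0 of the 54, where 1.72% of all genes tested were called higher and 1.39% lower. At an unadjusted p under 0.05 there were 4 members higher and 3 lower (7.41% and 5.56%, against 10.7% and 10.4% of all genes tested). edgeR called 0 members, where it called 1.87% of all genes tested higher and 1.07% lower. DESeq2 called LOC102659655 higher and LOC102662475 lower (1.85% each), where it called 5.84% of all genes tested higher and 4.16% lower. The heat stress libraries did not overlap the control libraries in 8 members that were higher and 5 that were lower (14.8% and 9.26%), beside 13.5% and 13.3% of all genes tested. LOC102659655 averaged 193 ± 10.2 normalized counts in heat stress and 81.5 ± 13.7 in control (SD, n = 3 each), which is a log2 difference of 1.25 (SE 0.49, adjusted p by limma 0.169). LOC102662475 averaged 1113 ± 312 in heat stress and 2109 ± 442 in control (SD, n = 3 each), which is a log2 difference of -0.94 (SE 0.29, adjusted p by limma 0.0945).

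Without heat stress library 3, limma called 3 members for heat stress minus control, 2 higher and 1 lower (3.70% and 1.85%). In the same fit 7.17% of all genes tested were called higher and 7.14% lower. LOC100798817 had normalized counts of 143, 161 and 133 in combined stress, 220.2, 229 and 121 in water deficit, 1517, 1715 and 555 in heat stress and 699, 501 and 699 in control. Heat stress libraries 1 and 2 were above every control library, while library 3 lay among the controls. The change of LOC100798817 without library 3 was 1.37 (SE 0.28, adjusted p 0.0102), beside 0.85 (SE 0.38, adjusted p by limma 0.230) with it. LOC100796582 was likewise called higher without that library, at 1.02 (SE 0.25, adjusted p 0.0220), and LOC102662475 lower, at -1.13 (SE 0.31, adjusted p 0.0340). The median over the set was 0.01 in this fit.

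For heat in plants short of water (combined stress minus water deficit), the shares of members called were near those of all genes tested. They rest on 5 genes, so nothing is read from the difference. limma called 2 of the 54 genes higher, LOC100787158 and LOC100796582 (3.70%, against 5.87% of all genes tested), and 3 lower, LOC100790804, LOC100792087 and LOC100786411 (5.56%, against 6.87% of all genes tested). The median over the set was -0.18, against -0.04 over all genes tested, with 20 genes above 0 and 34 below. Groups did not overlap in 4 members that were higher and 3 that were lower (7.41% and 5.56%), beside 17.4% and 18.5% of all genes tested. The choice held every value of both groups to at most 2/3 of the lowest heat stress or control value. A gene that was high in either group could thus not enter, and the shares are a description. The last condition of the choice could have limited falls in this contrast, but it removed 0 genes and so limited none here. The median standard deviation of the set (log2, n = 3 libraries each) was 0.62 in combined stress and 0.41 in water deficit. Over all genes tested it was 0.35 and 0.27. In heat stress and control it was 0.38 and 0.26 in the set, close to 0.37 and 0.25 over all genes tested. The wider spread was thus in the groups where the choice makes members low, and the part of low counts in it was not tested. The calls depended on few libraries: 0 of the 5 genes were called without combined stress library 3, 0 without water deficit library 2, 1 without water deficit library 1, 2 without water deficit library 3 and 3 without combined stress library 1. In the order given, those fits called 1233, 1961, 2116, 2649 and 5558 of all 33119 genes tested. Without control library 1 or 2, 3 of the 5 were called, beside 3031 and 3162 of all genes tested. With only the 2 groups compared in the fit, 0 members were called, where 1361 of all 33119 genes tested were called higher and 1495 lower.

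LOC100787158 had normalized counts of 104, 83.7 and 215 in combined stress, 57.9, 36.6 and 39.9 in water deficit, 435, 605 and 944 in heat stress and 611, 616 and 371 in control. LOC100787158 averaged 134 ± 70.4 in combined stress and 44.8 ± 11.4 in water deficit (SD, n = 3 each), with no overlap, a log2 difference of 1.47 (SE 0.39, adjusted p by limma 0.0299). Combined stress library 3 was the highest of its group. LOC100796582 had normalized counts of 109.9, 152 and 134 in combined stress, 62.5, 76.9 and 55.0 in water deficit, 584, 486 and 278 in heat stress and 233, 238 and 327 in control. Combined stress lay above water deficit in every library of LOC100796582, with means of 132 ± 21.4 and 64.8 ± 11.1 (SD, n = 3 each) and a log2 difference of 1.02 (SE 0.29, adjusted p by limma 0.0386). The call of this gene was lost with the same total per library and without the filter on low values. LOC100790804 had normalized counts of 12.4, 38.9 and 14.4 in combined stress, 71.8, 60.4 and 68.2 in water deficit, 125, 111 and 228 in heat stress and 168, 222 and 166 in control. Its combined stress values lay below all water deficit values, which were even, and the log2 change was -1.74 (SE 0.41, adjusted p by limma 0.0195). LOC100792087 had normalized counts of 15.7, 36.5 and 18.4 in combined stress, 63.5, 103 and 37.2 in water deficit, 327, 298 and 280.4 in heat stress and 256, 289.5 and 422 in control. The groups did not overlap, although water deficit library 3 came close to combined stress library 2, and the log2 change was -1.46 (SE 0.39, adjusted p by limma 0.0321). LOC100786411, whose values are given above, averaged 2134 ± 1179.8 in combined stress and 4553 ± 1156 in water deficit (SD, n = 3 each), which is a log2 difference of -1.19 (SE 0.32, adjusted p by limma 0.0336). Combined stress library 2 of this gene overlapped water deficit library 3, and edgeR did not call it. edgeR called the other 4 genes and LOC100797958, so 3 members were higher and 2 lower (5.56% and 3.70%), where 6.58% of all genes tested were called higher and 6.25% lower.

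LOC100797958 was called higher in combined stress than in water deficit by edgeR and DESeq2 but not by limma. LOC100797958 had normalized counts of 178, 732 and 555 in combined stress, 174, 191 and 177 in water deficit, 3218, 2231 and 2448 in heat stress and 1763, 1757 and 2019.7 in control. Combined stress library 1 was the low one, and without it limma gave a log2 change of 1.81 (SE 0.19, adjusted p 0.000744). DESeq2 also called LOC100795820 higher and LOC100809502 lower, which with all 5 of limma's genes makes 4 members higher and 4 lower (7.41% each). Of all genes tested it called 10.6% higher and 10.6% lower.

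**Figure D3:**
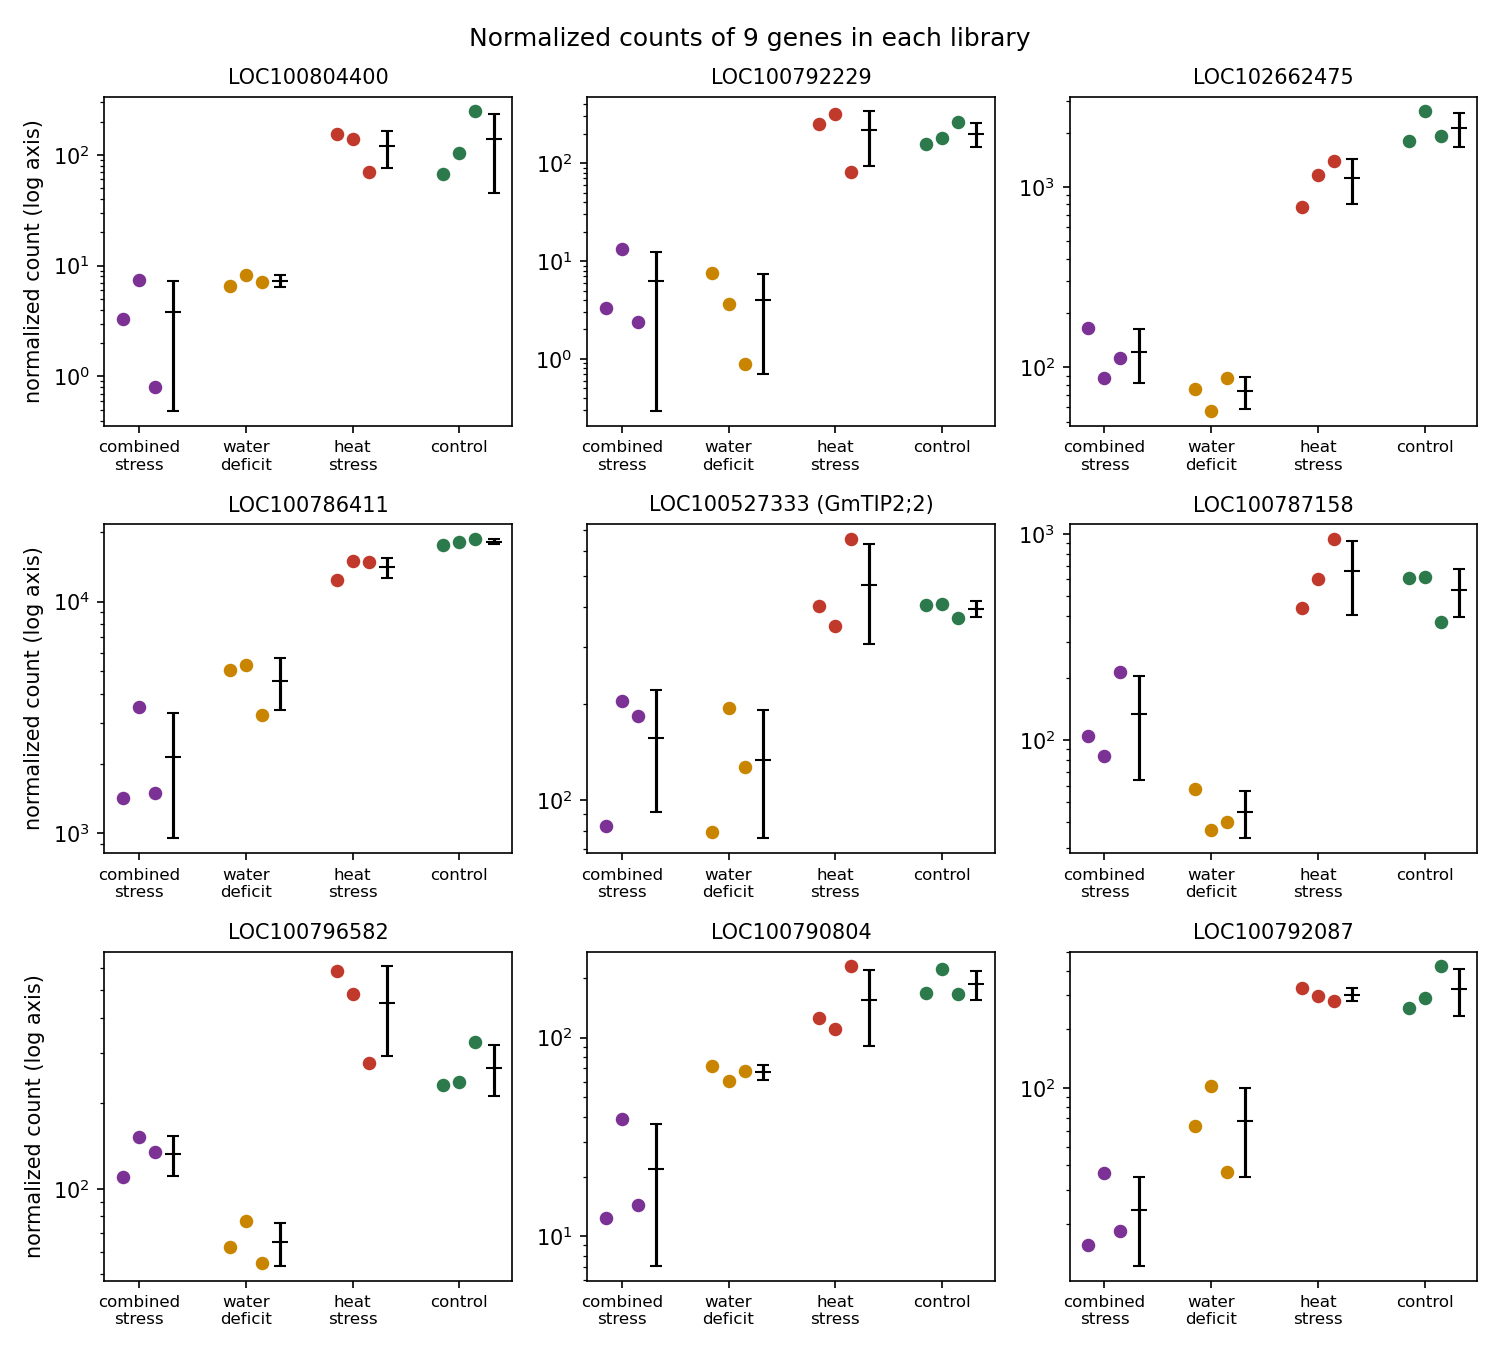
Points are the normalized counts of single libraries on a log axis, by group; the mark and bar beside them are the mean and standard deviation (n = 3). The panels show the 3 genes with the largest ratios, LOC100786411 with the highest control count, the aquaporin LOC100527333 (GmTIP2;2) and the other 4 genes called for combined stress minus water deficit, of which LOC100787158 and LOC100796582 are higher and LOC100790804 and LOC100792087 lower in combined stress.

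The heat effect with and without water deficit was compared over the set, since the contrasts combined stress minus water deficit and heat stress minus control share no library. Their sign was the same in 34 of 54 members (63.0%), against 69.4% of all genes tested. Of these 34 members, 13 were above 0 in both and 21 below 0 in both. In 13 members heat went with a higher level in watered plants and a lower one in water deficit, and in 7 it was the reverse. Pearson's r between the changes was 0.166 across the 54 genes and 0.508 across all 33119 genes tested. Genes are not independent replicates, the set spans a narrower range of heat changes than all genes do, and the difference between these values was not tested.

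**Figure D4:**
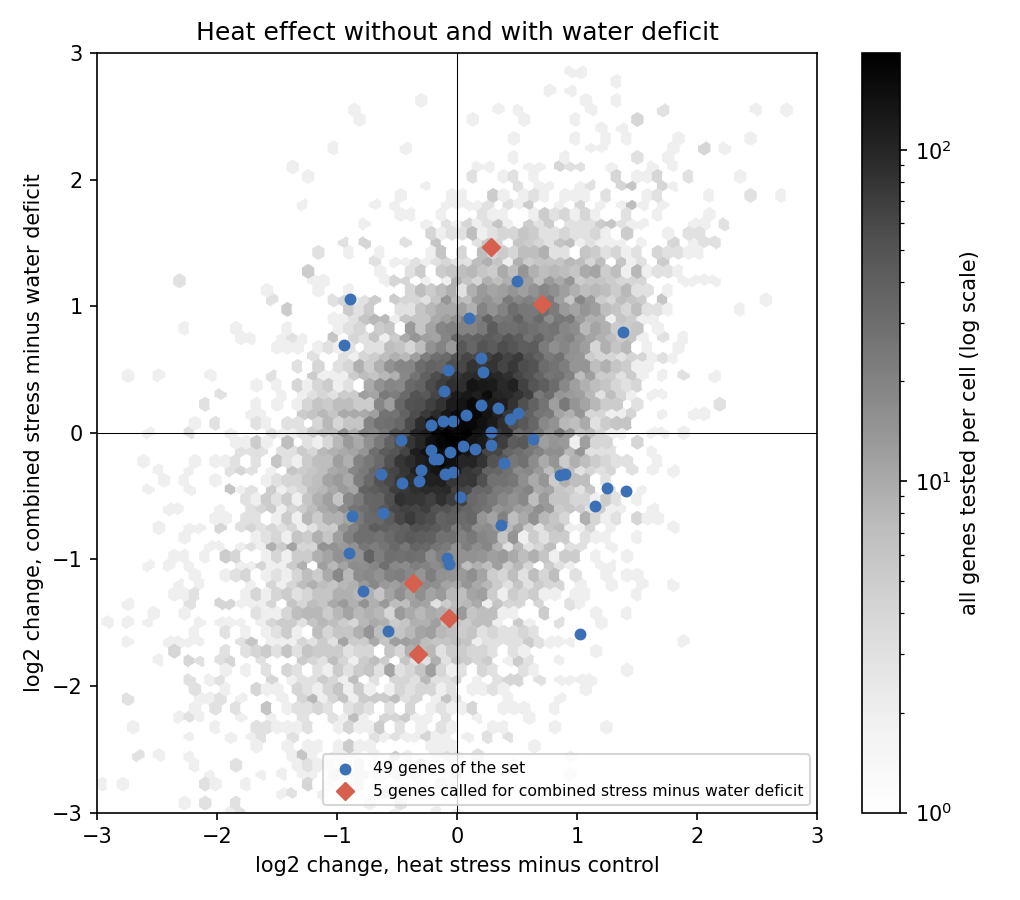
The x axis is the log2 change of heat stress minus control and the y axis that of combined stress minus water deficit; grey cells count all genes tested on a log scale within 3 on each axis, and coloured points are the 54 genes. The set lies around 0 on both axes, and diamonds mark the 5 genes called on the y axis.

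Members often shared a high or low library in water deficit, combined stress and control, and less so in heat stress. Water deficit library 3 was the lowest of its group in 41 of 54 members (75.9%), where it was the lowest in 45.4% of all genes tested, and its median gap to the mean of the other 2 libraries was -0.46 on the log2 scale, against -0.04 over all genes tested. Combined stress library 1 was the lowest in 27 members (50%, against 41.6% of all genes tested) and lay -0.33 from the other 2 at the median, while combined stress library 2 was the highest in 31 members (57.4%, against 29.2%) and lay 0.38 above them. DEHYDRIN, a gene for a protective protein that accumulates in drying tissue, was highest in combined stress library 1 and water deficit library 3, where most or many members were lowest, with normalized counts of 28753, 3982 and 9348 in combined stress and 1220.5, 137 and 7872 in water deficit, against 1.26, 13.9 and 17.0 in heat stress and 15, 7.62 and 26.1 in control. Control library 3, where DEHYDRIN was highest of its group too, was the highest in 36 members (66.7%, against 41.3% of all genes tested). Heat stress library 3, which stands apart on the clock gene LCL3, was the lowest of its group in 28 members (51.9%, against 42.4% of all genes tested) and the highest in 20 (37.0%, against 41.5%). The part of the choice, of DEHYDRIN and of LCL3 in these gaps was not tested. Without heat stress library 3 the same limits chose 75 genes, among them all 54 and 21 more, and without combined stress library 1 they chose 67 genes, of which 51 were members.

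The only member with a name was the tonoplast aquaporin LOC100527333 (GmTIP2;2). LOC100527333 had normalized counts of 82.6, 203 and 183 in combined stress, 79.3, 193 and 127 in water deficit, 405, 350.4 and 655 in heat stress and 405, 411 and 369 in control. It kept 33.2% of its heat stress level in combined stress and 33.7% of its control level in water deficit. Heat stress minus control was 0.20 (SE 0.39, adjusted p by limma 0.818) and combined stress minus water deficit 0.22 (SE 0.39, adjusted p by limma 0.749). Of 15 lists of plant gene groups looked up by symbol or synonym, 14 held genes of the table and 1, the aquaporins, held a member. The lists without a member covered cell wall, auxin, gibberellin with brassinosteroid and cytokinin, photosynthesis, cell division, lipid and wax, flavonoids, ion transport, sugar and starch, receptor-like kinases, defence, transcription factors, and cytochrome P450 with peroxidase. Most LOC genes carry no symbol, so this says nothing of what the members are. Of the 11 aquaporins found by symbol or synonym, all passed the filter on low values. In heat stress minus control 0 were called by limma, in combined stress minus water deficit 0 were called higher and 1 lower (PIP1), in combined stress minus heat stress 0 higher and 2 lower (LOC100527333 and LOC100527509), and in water deficit minus control 0 were called. The median log2 change of the 11 was -0.24 in heat stress minus control, -0.60 in combined stress minus water deficit, -0.54 in combined stress minus heat stress and -0.26 in water deficit minus control, against -0.01, -0.04, -0.01 and 0.02 over all genes tested. LOC100527509 had normalized counts of 429.5, 681 and 339 in combined stress, 843, 1459.9 and 278 in water deficit, 5431, 4279.8 and 1998 in heat stress and 2478, 1269 and 3103 in control. This tonoplast aquaporin (synonyms GmTIP1;2 and GmTIP1;8) was low in the same groups, but its water deficit and control libraries overlapped. SPCP1 had normalized counts of 2357, 2546 and 2326 in combined stress, 2974, 3956 and 1346 in water deficit, 6664, 5879 and 5688 in heat stress and 6624, 5198 and 10621 in control. SPCP1 (synonyms GmTIP1;3 and GmTIP1;7) is another tonoplast aquaporin. Every library of SPCP1 that was short of water lay below every other library, but by less than the set requires. Other aquaporins had higher means in water deficit than in control. PIP1 had normalized counts of 203, 31.5 and 20.8 in combined stress, 198, 290.2 and 349 in water deficit, 20.2, 31.6 and 10.7 in heat stress and 62.6, 27.4 and 37.7 in control. LOC100777419 had normalized counts of 164, 23.2 and 5.60 in combined stress, 86.8, 166 and 775 in water deficit, 5.04, 12.1 and 8.93 in heat stress and 27.3, 32.8 and 39.7 in control. LOC547794 had normalized counts of 661, 153 and 24.8 in combined stress, 466, 808 and 1565 in water deficit, 200.5, 229.6 and 173 in heat stress and 271, 356 and 431 in control. Water deficit minus control was 2.73 (SE 0.71, adjusted p by limma 0.0922) for PIP1, a plasma membrane aquaporin. The change was 2.73 (SE 1.01, adjusted p by limma 0.241) for LOC100777419 (synonyms GmTIP1;4 and GmTIP1;5). For LOC547794 (GmTIP1;6) it was 1.27 (SE 0.86, adjusted p by limma 0.591), so none of these genes was called. The aquaporins described other than LOC100527333 were picked with their values in view.

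A pair of members, LOC100798709 and LOC100799762, are direct neighbours in the RefSeq gene table, with 0 annotated genes between them. LOC100799762 had normalized counts of 15.7, 101 and 109.7 in combined stress, 29.9, 76.0 and 14.2 in water deficit, 305, 442 and 1126 in heat stress and 179, 174 and 274 in control. Its level was high in the same 6 libraries as that of LOC100798709, by the choice of both. Both were higher in every heat stress library than in any control library. Members LOC100796752 and LOC100797827 have 2 annotated genes between them, LOC100796219 and LOC100797276. LOC100796219 had normalized counts of 8.26, 17.4 and 20.0 in combined stress, 58.8, 42.1 and 44.3 in water deficit, 27.7, 37.2 and 45.5 in heat stress and 52.0, 48.0 and 35.6 in control. The values of LOC100797276 were not looked up. LOC100796752 had normalized counts of 14.9, 72.1 and 23.2 in combined stress, 52.3, 56.8 and 29.2 in water deficit, 598, 408 and 166 in heat stress and 200, 114 and 163 in control. LOC100797827 had normalized counts of 35.5, 45.6 and 26.4 in combined stress, 38.3, 30.2 and 26.6 in water deficit, 141, 146 and 188 in heat stress and 96.0, 99.8 and 139 in control. Reads that match more than 1 gene of such a neighbourhood could not be checked in the deposited values.

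Only 2 genes with a name in place of a LOC identifier met the other conditions, NES and RAV. NES had normalized counts of 158, 198 and 68.0 in combined stress, 349, 389.9 and 108 in water deficit, 2411, 3015 and 2382 in heat stress and 692, 894 and 1467 in control. NES is a terpene synthase (GmTPS18), and its level was low in every combined stress and water deficit library. RAV had normalized counts of 42.1, 263 and 323 in combined stress, 99.8, 131 and 270.3 in water deficit, 883, 995 and 951 in heat stress and 715, 645 and 606 in control. RAV genes code for plant transcription factors with a B3 domain that restrain growth. In heat stress minus control NES changed by 1.42 (SE 0.49, adjusted p by limma 0.131) and RAV by 0.53 (SE 0.61, adjusted p by limma 0.669). In combined stress minus water deficit the changes were -0.92 (SE 0.49, adjusted p by limma 0.232) for NES and 0.01 (SE 0.61, adjusted p by limma 0.994) for RAV.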

How the data were processed

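The deposited table holds normalized counts per gene for 12 leaf libraries, 3 in each of 4 groups. Per the submitters' processing notes, cutadapt 1.18, FastQC 0.11.7, STAR 2.4.0.1 and DESeq2 1.20.0 were used; the build and the counting step are not given in the sources used here. The values are a signal scaled by the authors' size factors: dividing by a library's smallest step recovered whole reads for 100% of values (tolerance 0.01), 26077068 to 46186226 per library.

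limma 3.58.1 (R 4.3.3) was fitted to log2(normalized count + 1) of all 12 libraries with a variance trend, over 33119 genes with a mean of at least 10. Fold changes are on that scale, which understates changes of low genes. P-values were adjusted over all genes tested (Benjamini-Hochberg), and called means an adjusted p under 0.05. edgeR 4.0.16 and DESeq2 1.42.0 on the recovered reads, a pseudocount of 10, no filter, no variance trend, equal library totals, fits of only 2 groups and leaving out each library were alternatives. The script was tested on simulated data. The members and gene lists were chosen with earlier results of these data known. For the contrasts that chose the members, counts of calls describe the choice and support nothing. The interaction is formed from the same contrasts, so its values for members are also a description. Named genes are the 10 members with the largest ratio, the 6 with the highest control mean, up to 3 each way called for combined stress minus water deficit, those called for heat stress minus control, 3 on each side of the ratio limit and the listed member with the highest control mean. Others were chosen after their values were seen. No sequence was used.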

Additional observations from a re-analysis of the deposited data

How the results depend on the processing

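Limits. With 3 libraries a group, DESeq2 called many more genes than limma, and fits of only 2 groups mostly fewer. Of 54 members, 24 had under 50 reads in some library and 8 under 10, which limits the precision of their falls. A ratio limit of 0.5 in place of 2/3 left 22 of the 54 genes, and leaving out 1 library gave 58 to 75 genes. For heat stress minus control, limma called 1031 genes, DESeq2 3314 and a fit of only the 2 groups 295; leaving out 1 library gave 139 to 4742. The members called were 0 with limma, 2 with DESeq2 and 0 to 3 without 1 library, with a median of -0.0913 to 0.14. For combined stress minus water deficit, limma called 4221 genes, DESeq2 7025 and a fit of only the 2 groups 2856. Leaving out 1 library gave 1233 to 6460. The members called were 5 with limma, 8 with DESeq2, 0 with only the 2 groups and 0 to 9 without 1 library, with a median of -0.37 to -0.0005. For water deficit minus control, limma called 423 genes, DESeq2 1873 and only the 2 groups 1318; without 1 library there were 30 to 882 genes and 7 to 50 members, with a median of -2.16 to -1.83. For combined stress minus heat stress, limma called 1724 genes, DESeq2 3834 and only the 2 groups 127, with 13 members in place of 52; without 1 library there were 382 to 6840 genes and 38 to 54 members, with a median of -2.37 to -2.09. For the interaction, limma called 0 genes (1408 were higher and 1724 lower at an unadjusted p under 0.05), a pseudocount of 10 gave 1, DESeq2 261 with 1 member, and leaving out 1 library 0 to 1583 genes and 0 to 2 members, with a median of -0.27 to -0.03. The causes of these differences were not tested. In none of the 19 alternatives did the 5 named members change direction between combined stress and water deficit; their calls were lost in 4 to 10 of them. No paired analysis was possible because the groups share no replicate numbers in the labels.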
